A study of Mus musculus with 12 samples.

Results

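The genes for proteasome subunits were followed in limb ends: the autopod, from which hand or foot forms, was taken from wild-type mouse embryos at E12.5. The members were all probe sets whose annotation gave exactly 1 gene symbol, beginning with Psma, Psmb, Psmc or Psmd and then a digit. This took 68 of the 22626 probe sets on the A design of the Affymetrix MOE430 GeneChip set (39 genes) and 15 of the 22511 on the B design (12 genes), with the control probe sets left out. In genes with a symbol of their own, that is 39 of 12393 and 12 of 9607. Together they covered 40 genes, and 3 member probe sets lay on both designs. By the letters of the rule Psmc3ip is included, which encodes a recombination factor that binds Psmc3 and is no proteasome subunit, so it was counted and is shown apart.

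The wild-type forelimb group held samples 11, 13 and 25 and the wild-type hindlimb group samples 12, 14 and 26, each hybridised to 1 A and 1 B array. The labels give no strain, treatment or pooling of embryos, so p-values speak of spread among samples that may be technical, and 3 arrays a limb limit the precision. The A array of forelimb 11 was placed by its title alone, since its tissue label names no limb. In such bulk tissue, fewer cells of a type and less RNA per cell cannot be told apart. The A array signals of the limb type genes fitted the labels. Tbx5, a forelimb factor, read 474 to 555 in forelimb and 8.0 to 13.9 in hindlimb on 1 probe set. On the brighter Tbx5 probe set forelimb read 1145 to 1381, and hindlimb 12, 14 and 26 read 29.3, 173.8 and 29.7. Pitx1, a hindlimb factor, read 99 to 159.8 in forelimb and 478 to 678 in hindlimb on 1 probe set, and 70.8 to 82 and 262 to 430 on the other. All 8 limb mesenchyme markers looked for had a tested probe set on the A array.

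The 26S proteasome degrades proteins tagged with ubiquitin. Its barrel-shaped core stacks rings of alpha subunits (Psma genes), which gate the entrance, and of beta subunits (Psmb genes), some of which cut the substrate. The cap on the barrel has a ring of ATPases (Psmc genes), which unfold substrates and push them in, and non-ATPase subunits of its base and lid (Psmd genes), which bind ubiquitin and remove it. In immune cells, or after interferon, Psmb9, Psmb10 and Psmb8 replace the standard catalytic subunits Psmb6, Psmb7 and Psmb5 to form the immunoproteasome.

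No proteasome gene was called different between hindlimb and forelimb. Of the 68 members on the A array 56 (36 genes) reached a scaled signal of 100 on 3 or more of the 6 arrays and were tested, and 0 passed a limma adjusted p of 0.05, as against 0.0326% of all 15338 probe sets tested. At an unadjusted limma p under 0.05 there were 2, both higher in hindlimb (a probe set each of Psmd4 and Psmc6), where 5.54% of all tested probe sets had such a p, 1.85% higher and 3.69% lower in hindlimb. No tool other than limma was run. On 5 of the 56 every sample of a limb exceeded those of the other, against 11% of all tested. On 3 of these the hindlimb was higher (4.94% of all) and on 2 the forelimb (6.10% of all). Differences are given throughout as hindlimb minus forelimb in log2 of (signal + 32), a scale on which changes of dim probe sets come out too small.

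For 50 of the 56 tested members the 95% interval of the difference lay inside a change of 1.5-fold either way (0.585 on the log2 scale), and for 54 inside 2-fold. Over all tested probe sets these shares were 72.4% and 96.8%. Inside 1.5-fold lay 89.9% of tested cytoplasmic ribosomal protein probe sets and 89.4% of respiratory chain probe sets, beside 89.3% of members. The median half-width of the interval was 0.28 for members and 0.35 for all tested. The 6 members whose interval reached beyond 1.5-fold were probe sets of Psma6, Psmb4, Psmc4, Psmc6 (a pair) and Psmd4. The plot of differences with intervals shows them among the rest.

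**Figure D1:**
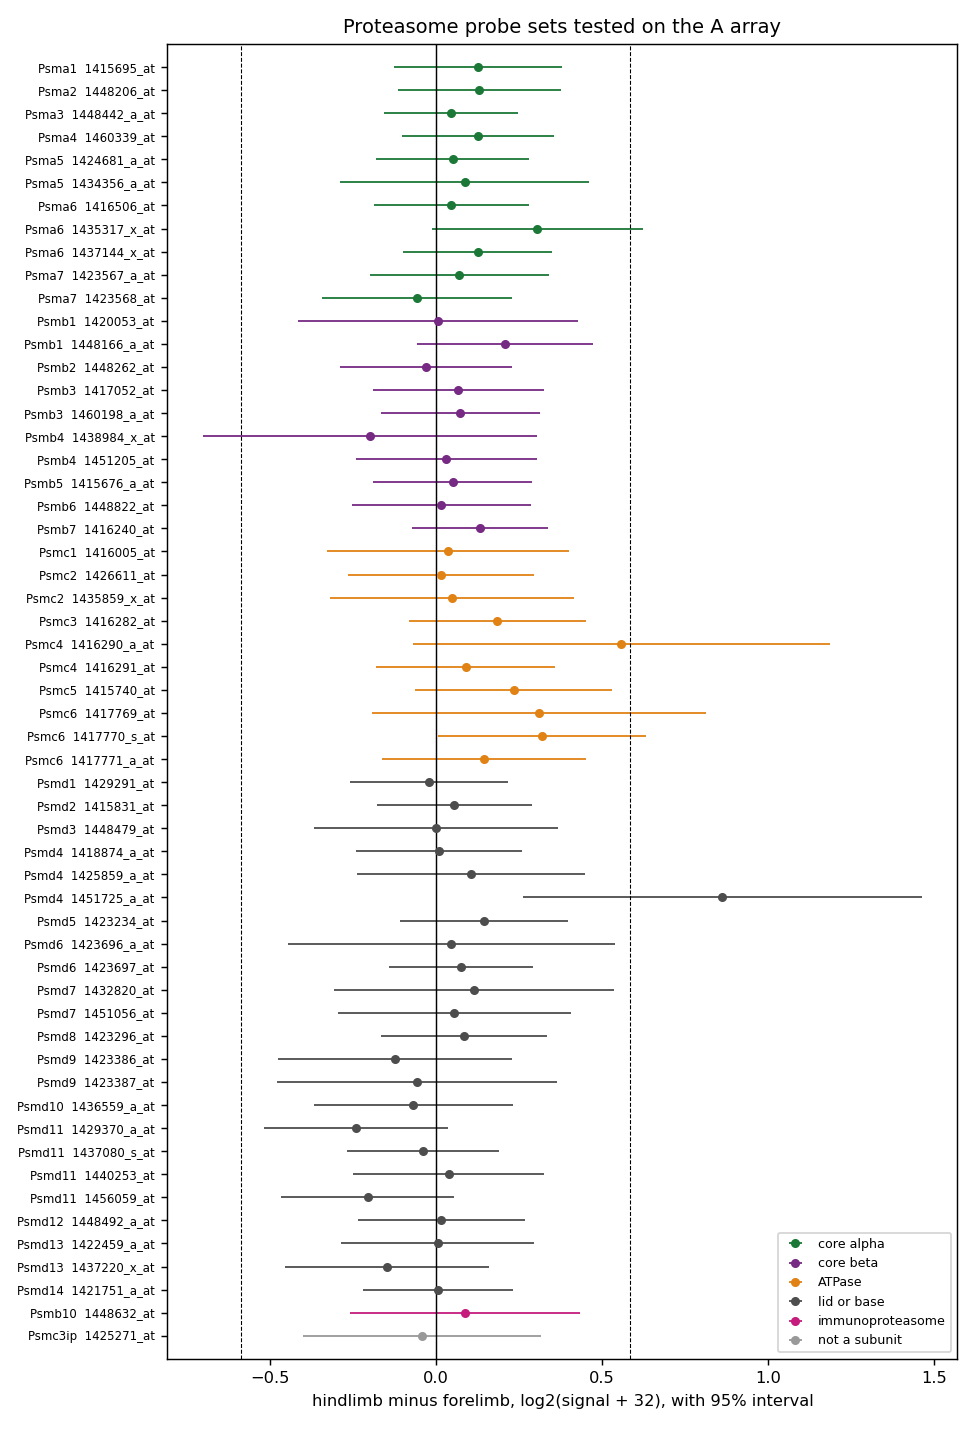
Each of the 56 tested A array probe sets has a point for its log2 difference, hindlimb minus forelimb, and a bar for its 95% interval from limma (n = 3 samples per limb), coloured by group of subunits; dashed lines mark 1.5-fold. All but 6 intervals lie between the dashed lines, and the Psmd4 probe set at 0.86 stands farthest from 0.

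No alpha ring gene passed the threshold. All 7 broadly expressed genes, Psma1 to Psma7, were tested, with 11 probe sets whose differences ran from -0.056 to 0.31 (median 0.087), 10 of them above 0. The median was 0.029, with 8 above 0, without hindlimb 12; it was 0.053 without forelimb 25, 0.15 without forelimb 11 and 0.14 without hindlimb 26. By smallest p they were led by a Psma6 probe set (1435317_x_at), with 253, 209 and 227 in forelimb 11, 13 and 25 and 309.6, 298 and 265.5 in hindlimb 12, 14 and 26. Here the hindlimb samples lay above all forelimb samples, with a difference of 0.31 ± 0.14 (SE, limma adjusted p = 0.915). The other tested Psma6 probe sets were far brighter and gave 0.047 and 0.13 with overlapping limbs. The suffix _x_at marks a probe set whose probes can also match other transcripts.

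Psma2 read 4299.6, 4555 and 3772 in forelimb and 4773, 4945.5 and 4122 in hindlimb, a difference of 0.13 ± 0.11 (limma adjusted p = 0.966). Psma4 read 3746, 3486 and 3534 in forelimb and 4352.5, 3594 and 3852 in hindlimb, a difference of 0.13 ± 0.10 (limma adjusted p = 0.966). For both genes the lowest hindlimb sample lay below the highest forelimb sample. Psma7 was the 1 alpha gene with probe sets on both sides of 0, at 0.071 and -0.056. Psma8, an alpha subunit known from the testis, was below the filter with signals of 4.9 to 75.7. The 12 A array members below it were this one, those of Psmb8 and Psmb9, 2 of Psma1, 2 of Psmd11 and 1 each of Psma5, Psma6, Psmb1, Psmc1 and Psmd7, with single signals of at most 120.1.

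The standard catalytic beta subunits had intervals that stayed inside 1.5-fold. Psmb5, which carries the chymotrypsin-like site, read 3753, 3461 and 3343 in forelimb and 3848, 3885 and 3232 in hindlimb (A array). The limbs overlapped, with a difference of 0.051 ± 0.11 (limma adjusted p = 0.995, 95% interval -0.19 to 0.29). Psmb6, with the caspase-like site, read 4352, 3496 and 3227 in forelimb and 3842, 3799 and 3486 in hindlimb, a difference of 0.017 ± 0.12 (limma adjusted p = 0.997, 95% interval -0.25 to 0.29). Its sign turned under quantile normalization and without any 1 of forelimb 13 and 25 and hindlimb 12 and 14. Psmb7, with the trypsin-like site, read 8325, 7693 and 7823 in forelimb and 8886, 9502 and 7816.5 in hindlimb, a difference of 0.13 ± 0.093 (limma adjusted p = 0.963, 95% interval -0.073 to 0.34).

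Of the immunoproteasome counterparts, Psmb10 alone was tested on the A array. Psmb8, the counterpart of Psmb5, read 19.9, 4.3 and 18.9 in forelimb and 14.7, 8.4 and 14 in hindlimb and was not tested. Psmb9, the counterpart of Psmb6, read 67.7, 41.1 and 65.8 in forelimb and 20.7, 38.6 and 60.1 in hindlimb, with overlapping limbs, and was not tested either. Psmb10, the counterpart of Psmb7, passed the filter on all 6 arrays with 209, 178 and 228 in forelimb and 196, 218 and 243 in hindlimb, a difference of 0.087 ± 0.16 (limma adjusted p = 0.995). The second Psmb8 probe set, on the B array, was also below the filter, at 9.3 to 65.7. Signals of different probe sets have no common scale, so these readings do not give the ratio of immuno to standard subunits.

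**Figure D2:**
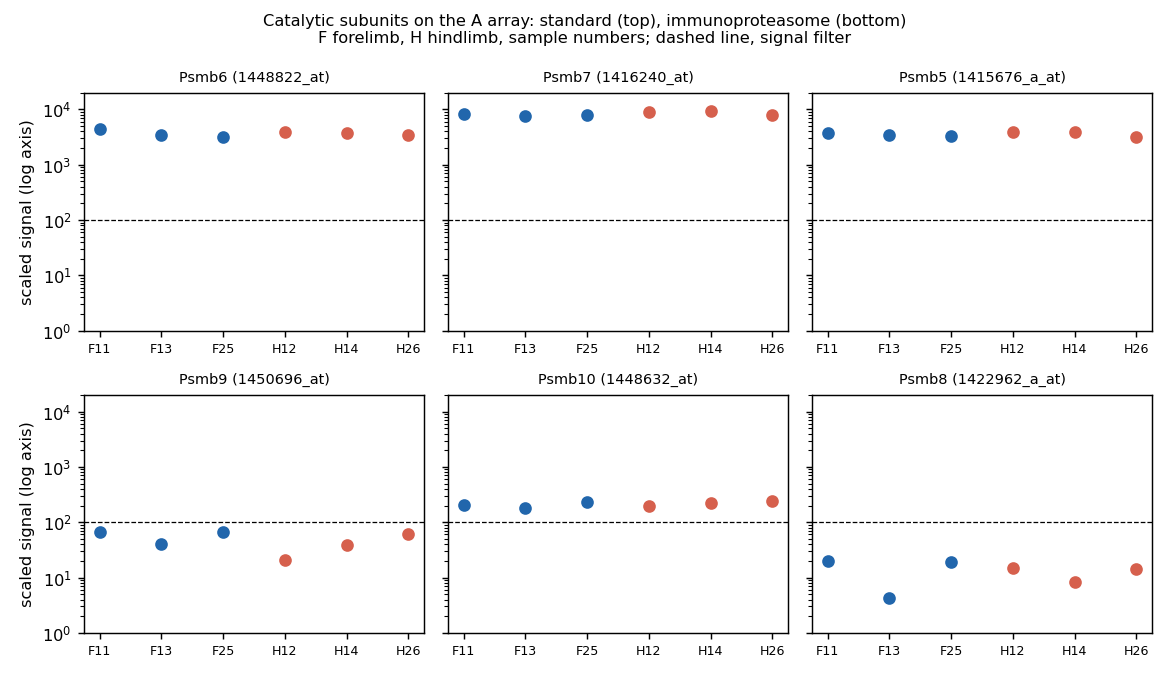
Scaled signal (log axis) of the standard catalytic subunits Psmb6, Psmb7 and Psmb5 (top) and of their immunoproteasome counterparts Psmb9, Psmb10 and Psmb8 (bottom) in each A array sample, blue for forelimb and red for hindlimb, with the filter of 100 dashed. Psmb8 and Psmb9 stay under the filter in all 6 samples, and no gene parts the limbs; levels are to be read within a panel, since probe sets differ in brightness for the same amount of RNA.

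Of 11 antigen presentation and interferon response genes on the A array 7 had a tested probe set. Of their 12 tested probe sets 0 passed the limma threshold or had an unadjusted p under 0.05, where 5.54% of all tested had such a p. Tap1 and Tap2, the peptide transporter that works beside the immunoproteasome, were below the filter, as were Ifit1 and Ifit3. B2m, the light chain of class I molecules, was bright at 1803 to 2312 on one probe set, with a difference of 0.017 ± 0.12 (limma adjusted p = 0.997). Those of smallest p were H2-K1 (-0.29 ± 0.20, limma adjusted p = 0.960) and H2-D1 (0.20 ± 0.16, limma adjusted p = 0.964), both with overlapping limbs. Other tested probe sets of these genes gave -0.008 and 0.036 for H2-K1 and 0.056 for H2-D1. Of 14 macrophage and leukocyte markers 10 had a tested probe set and none was listed at 0. Aif1, C1qa, Fcer1g and Ptprc were below the filter, and the summed marker signal ran from 3710 to 4086 over forelimb samples and from 3742 to 4167 over hindlimb samples.

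Promoter stretches are shown for the catalytic subunits of either kind that held a motif match, chosen for that match and not for their signals. Of the other immunoproteasome genes, neither Psmb8 nor Psmb10 had a match in its window, and the Psmb7 promoter was not analysed here. The stretches run from 100 bases before to 50 bases from the start site on, 5′ to 3′ on the gene's strand (RefSeq, GRCm38.p6). Capitals mark the antioxidant response element TGACNNNGC, the kind of site known to bind Nfe2l1 and Nfe2l2, and the CCAAT box, both searched on both strands.
Psmb5 (chr14:54617946-54618095, minus strand): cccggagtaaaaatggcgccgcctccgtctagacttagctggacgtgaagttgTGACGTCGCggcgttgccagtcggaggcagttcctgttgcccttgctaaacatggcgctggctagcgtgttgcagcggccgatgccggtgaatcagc
Psmb6 (chr11:70525257-70525406, plus strand): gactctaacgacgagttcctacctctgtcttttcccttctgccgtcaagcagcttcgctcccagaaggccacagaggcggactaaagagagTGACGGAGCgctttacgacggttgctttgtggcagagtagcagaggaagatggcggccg
Psmb9 (chr17:34187281-34187430, minus strand): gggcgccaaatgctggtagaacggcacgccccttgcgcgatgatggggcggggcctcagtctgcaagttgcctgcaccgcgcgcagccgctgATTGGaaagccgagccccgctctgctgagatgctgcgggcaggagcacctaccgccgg
The match began 47 bases before the start site of the window in Psmb5 and 9 in Psmb6. For Psmb5 the gene table has the same start, but for Psmb6 its start lies upstream, so that the match begins 24 bases after it. Psmb9 had a CCAAT box 8 bases before its start and no antioxidant match in this stretch. Windows of 300 bases (250 before the start) were on hand for 32 of the subunit genes. Of these 5 (15.6%) held the antioxidant motif, Psmb5, Psmb6, Psmc6, Psmd9 and Psmd12, against 14% of all 27025 genes. The CCAAT box was in 13 (40.6%), against 41.1% of all. The interferon-stimulated response element was searched as GAAA, any 2 bases, GAAA on both strands. It was in 3 (9.38%), Psmb3, Psmd4 and Psmd9, against 3.99% of all, a difference that was not tested. It was in 0 of the 3 immunoproteasome windows. The windows of Psmb9 and of Tap1, its divergent neighbour, shared 275 bases. A match is a run of letters only, and its use in the limb was not measured.

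Among the other beta genes Psmb1 had the smallest p, with 3305, 2612 and 2826 in forelimb and 3520.2, 3562 and 3009 in hindlimb. Its difference was 0.21 ± 0.12 with overlapping limbs (limma adjusted p = 0.940), and 0.13 without forelimb 13. The second tested Psmb1 probe set, far dimmer at 180.4 to 312, gave 0.006 ± 0.19. A Psmb4 probe set (1438984_x_at) went the other way at -0.20 ± 0.23 (limma adjusted p = 0.981). It read 1271, 1064 and 1211 in forelimb and 1241, 649 and 1327 in hindlimb, so that hindlimb 14 alone was low. Without hindlimb 14 its difference was 0.12, and the second Psmb4 probe set gave 0.032. Psmb2 (-0.029) and Psmb3 (0.068 and 0.074) lay near 0. Over the 10 tested core beta probe sets the median was 0.042, with 8 above 0. Without hindlimb 12 it was 0.009 with 6 above 0, without forelimb 11 it was 0.096 and without hindlimb 26 it was 0.098. Quantile normalization also left 6 above 0.

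The ATPase ring genes had a median difference of 0.17 over 10 probe sets of 6 genes, and all 10 were above 0. With 1 probe set per gene the median was 0.12, beside 0.13 for the alpha genes. None passed the threshold, and this count moved with single samples: 7 of 10 were above 0 without hindlimb 12 or without forelimb 25, and 8 without forelimb 13. The median was 0.085 without forelimb 25 and 0.12 without hindlimb 12, but 0.23 without hindlimb 26. Psmc6 (1417770_s_at) read 809, 808 and 819 in forelimb and 1214, 859 and 1019 in hindlimb. The hindlimb lay above the forelimb in all samples, by 0.32 ± 0.14 (limma unadjusted p = 0.0464, adjusted p = 0.888). The other Psmc6 probe sets gave 0.31 and 0.15 with overlapping limbs.

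Psmc4 (1416290_a_at) read 618, 661.5 and 1026 in forelimb and 1736, 703 and 1139 in hindlimb, a difference of 0.56 ± 0.28 (limma adjusted p = 0.940). Hindlimb 12 was high and hindlimb 14 lay within the forelimb range. Without hindlimb 12 the difference was 0.25 and without hindlimb 14 it was 0.88, and the brighter Psmc4 probe set gave 0.090 ± 0.12. Psmc5 read 1808, 2350 and 2343.5 in forelimb and 2839, 2480 and 2317.5 in hindlimb, a difference of 0.23 ± 0.13 with overlapping limbs (limma adjusted p = 0.940). It was 0.11 without forelimb 11, the lowest sample, and 0.15 without hindlimb 12. Psmc3 had 0.18, and Psmc1 (0.037) and Psmc2 (0.016 and 0.048) lay near 0.

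The lid and base group had 15 of 23 tested probe sets (65.2%) above 0, against 47.8% of all tested. Its median was 0.009, beside -0.009 for all tested, and fell below 0 under quantile normalization and without hindlimb 26. By its symbols this group also holds the assembly chaperones Psmd5, Psmd9 and Psmd10, which were not counted apart. Psmd4, a ubiquitin receptor of the cap, had the smallest p of all members on its dimmest probe set (1451725_a_at). It read 39.4, 101.5 and 107 in forelimb and 129, 204 and 177 in hindlimb. All hindlimb samples lay above all forelimb samples, by 0.86 ± 0.27 (limma unadjusted p = 0.00924, adjusted p = 0.633, 95% interval 0.26 to 1.46), the rank 221 by p of all 15338 probe sets. The size moved from 1.14 with a pseudocount of 1 to 0.58 with 100, and it was 0.55 without forelimb 11, the lowest sample. It was not tested with a filter at 200 or on the values as deposited. The brighter Psmd4 probe sets, at 2117.5 to 2574 and 828 to 1271, gave 0.009 ± 0.11 and 0.11 ± 0.16 with overlapping limbs. Psmd4 is known to have splice forms, and which form each probe set reads was not tested.

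Psmd11, a lid subunit, had the 2 member probe sets on which the forelimb lay above the hindlimb. On the first (1429370_a_at) it read 666, 625 and 727.5 in forelimb and 569, 588 and 535 in hindlimb, a difference of -0.24 ± 0.13 (limma adjusted p = 0.940). On the second (1456059_at) it read 1068, 1170.2 and 1170.7 in forelimb and 918, 1004 and 1023 in hindlimb, at -0.20 ± 0.12 (limma adjusted p = 0.940). The 2 remaining tested probe sets of Psmd11, both brighter, gave -0.039 and 0.039 with overlapping limbs. Psmd5, an assembly chaperone of the base, had the next smallest p in this group (0.14 ± 0.11, limma adjusted p = 0.964, limbs overlapping).

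**Figure D3:**
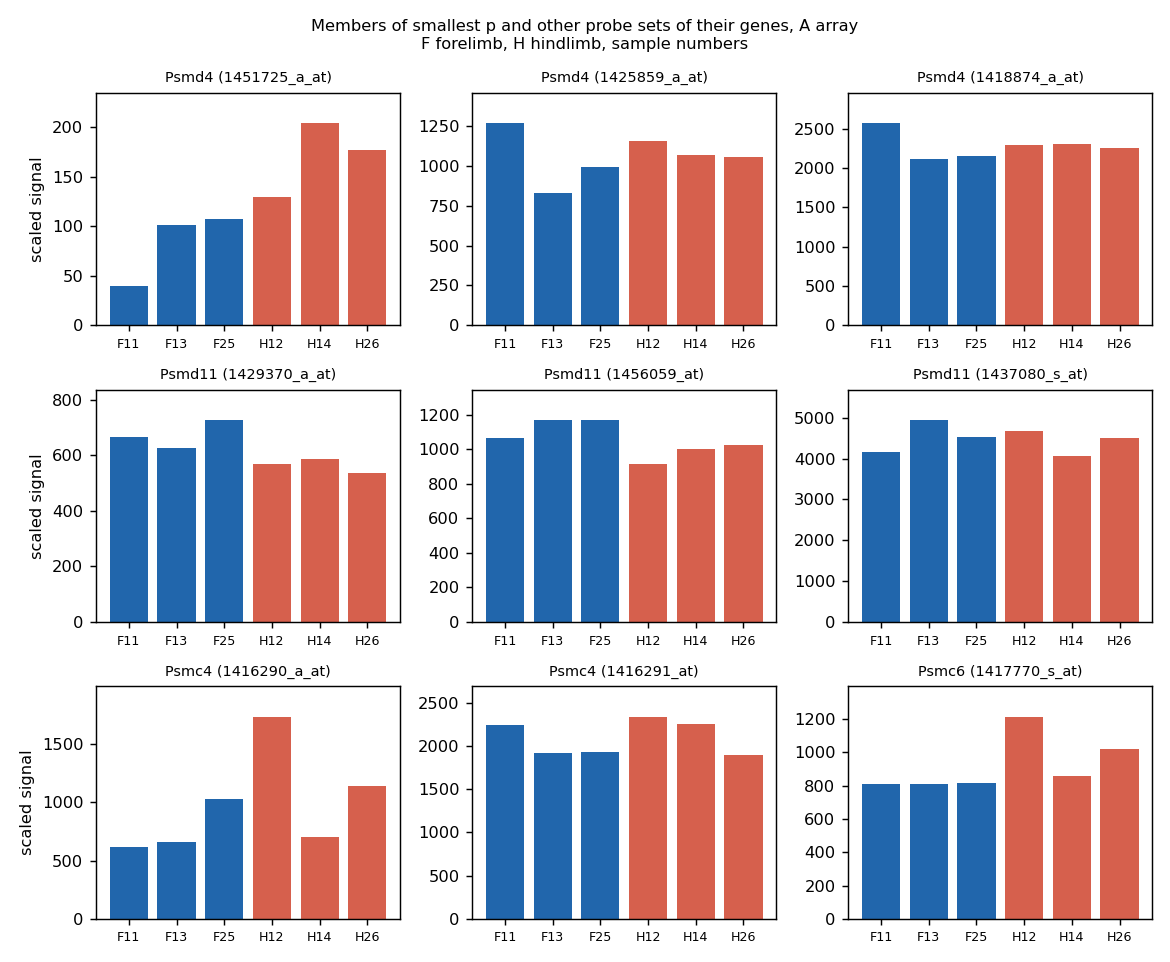
Bars give the scaled signal in each A array sample (blue forelimb, red hindlimb, axes from 0) for the Psmd4, Psmd11, Psmc4 and Psmc6 probe sets of smallest p and for other probe sets of the same genes. The dim Psmd4 probe set reads 39.4 to 107 in forelimb and 129 to 204 in hindlimb, while the brighter ones overlap, and Psmc4 is high in hindlimb 12 on 1 of its 2 probe sets.

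Further subunits of the lid and base stayed within 0.15 of 0. Psmd14, the lid enzyme that removes ubiquitin chains, had 0.007 ± 0.10, and Psmd1 and Psmd2, the large scaffolds of the base, had -0.020 and 0.056. Psmd3, Psmd12, Psmd6 and Psmd8 gave 0.001 to 0.084 and Psmd7 gave 0.056 and 0.12. Psmd13 had probe sets at 0.006 and -0.15. The assembly chaperones Psmd9 (-0.12 and -0.056) and Psmd10 (-0.068) were slightly below 0, each with overlapping limbs. Of the 15 genes with several tested probe sets on the A array 4 had both signs: Psma7, Psmb4, Psmd11 and Psmd13. Psmc3ip gave -0.042 ± 0.16 on the A design and 0.25 ± 0.16 with its B array probe set, the limbs overlapping on both.

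On the B array 11 of the 15 members (9 genes) were tested and 0 passed a limma adjusted p of 0.05, as against 0.0117% of all 17145 probe sets. No member had an unadjusted p under 0.05, where 5.54% of all did (2.33% higher and 3.21% lower in hindlimb). The limbs overlapped on all 11, where 10.9% of all did not overlap (4.81% with the hindlimb and 6.14% with the forelimb above). Below the filter were Psmb11, a beta subunit of the thymus, the Psmb8 probe set and 2 of Psmd11. The median difference was 0.093, with 9 of 11 above 0, beside -0.014 and 47.8% for all tested. Signals of the B array were stretched by a larger scaling factor and are not compared with those of the A array.

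The probe sets on both designs gave the same samples a second reading. Psmc5 had 0.23 on A and 0.19 ± 0.12 on B, where the forelimb signals were 6355, 6339 and 5996 and the hindlimb signals 7268, 7919.6 and 6238. The hindlimb 26 signal lay below those of forelimb 11 and 13, so the limbs overlapped. Psma1 had 0.13 and 0.076, and Psmb5 had 0.051 and 0.093, each with overlapping limbs. The B array also carried further probe sets of member genes. A Psma3 probe set read 953.5, 803 and 897 in forelimb and 858.5, 741 and 641 in hindlimb, at -0.24 ± 0.16 (limma adjusted p = 0.916), where Psma3 on the A array gave 0.045. A second Psma1 probe set had 0.23 ± 0.15 (limma adjusted p = 0.911) and Psmd13 had 0.12 ± 0.16 and 0.064. Psmc2 had 0.026 ± 0.24, with a sign that turned without forelimb 11 or 25 or hindlimb 12 or 26. Psmd2 was the least precise (0.32 ± 0.43), with 201, 92.1 and 79.3 in forelimb and 158.5, 236 and 91.4 in hindlimb.

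For each tested probe set the deviation from its own mean over the 6 samples was taken, and the median over members was highest in hindlimb 12 (0.11) and lowest in forelimb 25 (-0.083) and 13 (-0.072). Forelimb 11 (0.031) lay above hindlimb 14 (0.027) and hindlimb 26 (-0.019), so the limbs overlapped. The alpha and beta groups were also highest in hindlimb 12, with 0.12 and 0.11 in hindlimb 12, and the ATPase group was widest, from -0.15 in forelimb 25 to 0.26 in hindlimb 12. Hindlimb 12 was the highest of the 6 samples for 21 of 56 members (37.5%), as against 15.9% of all tested probe sets. This was not particular to the members: the respiratory chain median was also highest in hindlimb 12, at 0.11. That of cytoplasmic ribosomal proteins was highest in hindlimb 14 (0.084). On the B array the medians over members were 0.13 in hindlimb 12 and 0.14 in hindlimb 14, but -0.090 in hindlimb 26, below forelimb 11 (-0.066) and 13 (-0.011). The respiratory chain median there was highest in hindlimb 12 (0.12), with forelimb 11 at 0.11.

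**Figure D4:**
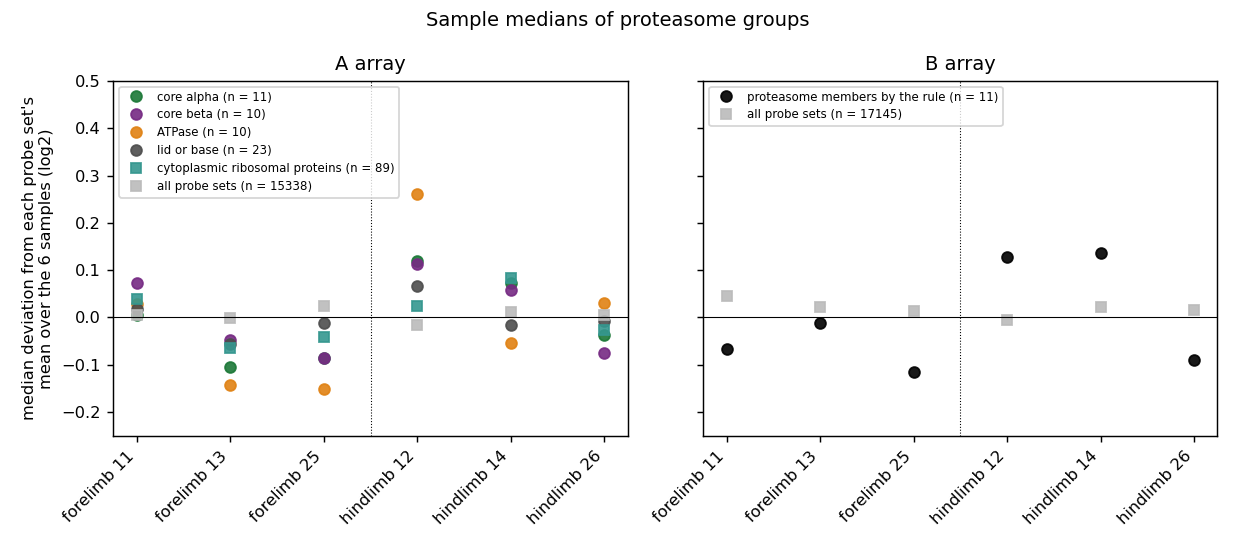
Each point is the median, over the tested probe sets of a group, of the deviation from the probe set's own mean over the 6 samples (log2), by sample and array design; squares are comparison sets. Hindlimb 12 is highest in the 4 standard subunit groups of the A array (0.066 to 0.26), while all tested probe sets stay within 0.05 of 0. Psmb10, the 1 tested immunoproteasome probe set, is not drawn and was highest in hindlimb 26 (0.18). Respiratory chain genes, also not drawn, were highest in hindlimb 12 (0.11).

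Over all 56 members of the A array 44 differences were above 0, with a median of 0.051, where 47.8% of all tested probe sets were above 0 with a median of -0.009. Quantile normalization, which moved the all-probe-set share to 51.7%, left 37 of 56. Without hindlimb 12 there were 34 of 56 and a median of 0.027, and without forelimb 11 the median was 0.10. The sample medians averaged -0.041 in forelimb and 0.039 in hindlimb, with a within-limb standard deviation of 0.064. Cytoplasmic ribosomal proteins (62 of 89 above 0, median 0.060) and respiratory chain genes (82 of 141, median 0.020) are given for comparison, with no test of the difference. For Gapdh the 3' signal over the 5' signal (log2), a sign of RNA quality, was -0.24 to -0.078 in forelimb and -0.30 to -0.26 in hindlimb on the A array (exact permutation p = 0.1, two-sided, the smallest 3 against 3 can give). The same ratio of beta-actin lay the other way, with means of 0.17 in forelimb and 0.24 in hindlimb (exact permutation p = 0.3). On the B array Gapdh had means of -0.16 and -0.14 (exact permutation p = 0.8). The part of RNA quality in these values was not tested. For 7 surface ectoderm markers the summed A array signal was 4657 to 6162 in forelimb and 3707 to 4254 in hindlimb. Fgf8 alone was below the filter and none was listed at 0. Of the 8 tested probe sets of these markers 4 had an unadjusted limma p under 0.05, where 5.54% of all tested probe sets did. These 4 were all keratins (Krt5, Krt14 with a pair, Krt15) and lower in hindlimb (3.69% of all tested). A further Krt14 probe set (1455573_at) went the other way at 0.080, with the hindlimb above the forelimb in all samples. Epcam (-0.013), Cdh1 (0.013) and Trp63 (0.089) overlapped. Skeletal muscle markers were below 0 on all 5 tested probe sets (median -0.30), with Myf5, Pax3 and Pax7 below the filter. Their summed signals ran from 1429 to 1888 over forelimb and from 1050 to 1457 over hindlimb samples. A Des probe set (-0.95 ± 0.33) alone had an unadjusted limma p under 0.05, with overlapping limbs. Limb mesenchyme markers were above 0 on 2 of 12 (median -0.10), with sums of 16469 to 18270 and 14340 to 17411. Among them Msx2 (-0.35 ± 0.12) alone had an unadjusted limma p under 0.05. Erythroid markers were above 0 on 7 of 8 (median 0.16), with sums of 61598 to 67503 and 66526 to 70451. Of these 8 probe sets 2 had an unadjusted limma p under 0.05, both higher in hindlimb (1.85% of all tested). In hindlimb 12 the A array median deviation was -0.46 for muscle and -0.23 for mesenchyme markers, the lowest of the 6 samples in both lists, and 0.068 for erythroid markers. The B array differed for mesenchyme markers, which were above 0 on 4 of 5 tested probe sets (median 0.069). Muscle markers were above 0 there on 0 of 1 and ectoderm markers on 0 of 2. No marker probe set of these lists was listed at 0 in all samples, and the part of any of these cell types was not tested.

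Member signals varied a little less between samples of one limb than all tested probe sets did, though those of the ATPase group did not. The median within-limb standard deviation was 0.15 (log2) for the 56 members and 0.19 for all tested probe sets on the A array, with a mean level (log2) of 11.1 for members and 8.80 for all at the median. The part of this difference in brightness in the spread was not tested. Comparison families varied no more than the members, with a median within-limb standard deviation of 0.11 for cytoplasmic ribosomal proteins and 0.14 for the respiratory chain. For the ATPase group it was 0.196. Of the 56 members 37 read 1000 or more in every sample.

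The rest of the pathway also gave no call. Regulators of the proteasome genes pointed both ways: Nfe2l1, the factor known to raise subunit genes when the proteasome is impaired, read 763.5, 746 and 748 in forelimb and 537, 643 and 727 in hindlimb. Its forelimb samples lay above the hindlimb, at -0.24 ± 0.14 (limma adjusted p = 0.940). Nfe2l2, the oxidative stress factor, read 657, 590.0 and 594 in forelimb and 717.5, 708 and 763 in hindlimb, with the hindlimb above, at 0.24 ± 0.12 (limma adjusted p = 0.940). Akirin2, which helps bring proteasomes into the nucleus, had -0.056, and Ngly1, which activates Nfe2l1, had -0.14.

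Among caps other than the standard one and the inhibitor, 0 of 11 probe sets of 5 genes passed the limma threshold. Of the 11, 1 had an unadjusted p under 0.05 (5.54% of all tested). This was Psmf1, an inhibitor of the core (1424370_s_at), with 167, 235.5 and 208 in forelimb and 342, 331 and 282 in hindlimb, at 0.58 ± 0.16 (limma unadjusted p = 0.00421, adjusted p = 0.552). Its hindlimb samples were all higher, but other Psmf1 probe sets gave -0.21 with the forelimb higher, -0.17 and 0.001. Psme4, a cap of the nucleus, had -0.36 ± 0.16 (limma adjusted p = 0.905) on one A array probe set, 0.24 and 0.053 on the other two, and 0.52 ± 0.21 (limma adjusted p = 0.894) on a B array probe set with the hindlimb above. Psme1, of the interferon-induced cap, had -0.013.

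Assembly factors (7 probe sets of 6 genes) had 0 passing and 0 with an unadjusted limma p under 0.05 (5.54% of all tested). They ranged from -0.12 to 0.17, with Psmg2 at 0.17 and -0.12 and Psmg3 at 0.12. Pomp, the maturation factor of the core, had 0.071. On the B array Ecpas had 0.22 ± 0.14 with overlapping limbs and Psmg2 -0.21 ± 0.17 with the forelimb above. Of 11 probe sets for other cap subunits and enzymes 0 passed and 1 had an unadjusted p under 0.05, beside the same 5.54% of all tested. Usp14, a deubiquitinase of the cap, had 0.29 ± 0.13 (limma adjusted p = 0.888) with the hindlimb above on that probe set, and 0.13 and -0.052 on its others. Ube3c, a ligase of the cap, had -0.33 ± 0.16 (limma adjusted p = 0.940) on one probe set with overlapping limbs. The brighter Ube3c probe set of the A array gave -0.056 and that of the B array -0.175, also with overlapping limbs. Shuttle factors and Vcp gave 0 of 13 past the threshold, with Ubqln2 at 0.28 and -0.073 and Rad23b at 0.21 and 0.010. On the B array Rad23b had 0.29, with the hindlimb above, and 0.28. Uba6, a ubiquitin-activating enzyme measured on the B array, had 4 probe sets at 0.11 to 0.26, the highest with the hindlimb above (limma adjusted p = 0.904).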

How the data were processed

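The files hold MAS5.0 signal intensities, linear and 1 per probe set, per the labels, which do not name the algorithm for the A array of forelimb 11. The deposited columns had a 2% trimmed mean of 350.1 (A) or 70.0 (B) on every array. All arrays were rescaled so that this mean became 500, and log2 was taken after adding 32. For each design by itself, limma 3.58.1 (R 4.3.3) was fitted to the 6 samples over the whole table of tested probe sets (lmFit, then eBayes using a mean-variance trend); tests were two-sided, with p-values adjusted by Benjamini-Hochberg. The code of the fit was run on data simulated from its own variance model. Such a run checks the code and not how well the model suits these arrays. Symbols are those of the platform annotation; checked by gene ID against a RefSeq table (GRCm38.p6), 0 differed. Promoter windows are from RefSeq, same build. Figures used matplotlib 3.10.9.

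The members and gene lists were chosen with earlier results of these data known. Named with full values were, per group of subunits, the 3 probe sets of smallest p on the A array and the 2 on the B array, of different genes, the catalytic subunits and their counterparts, and genes whose probe sets differed in sign; of the pathway lists, the 2 probe sets of smallest p. Others named (B2m, Tap1, Pomp, Psme1, Akirin2, Ngly1 and remaining subunits) illustrate a list. Settings varied one at a time were the pseudocount (1 or 100), the filter (none, or 200), the scaling (quantile, or none beyond the deposited one), the variance trend, array weights, a block by consecutive sample numbers, and each sample left out.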

Additional observations from a re-analysis of the deposited data

How the results depend on the processing

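No member passed an adjusted limma p of 0.05 on either array in any of the 17 settings, the reported one included; at an unadjusted p under 0.05 there were 0 to 4 members on the A array and 0 to 1 on the B array. The median difference over members stayed above 0, at 0.040 to 0.058 on the A array and 0.064 to 0.10 on the B array with all samples, and at 0.027 to 0.10 and 0.074 to 0.17 with each sample left out. On the B array it was 0.16 without forelimb 11 or hindlimb 12 and 0.17 without forelimb 13 or hindlimb 26. With a replicate block of consecutive sample numbers (11 with 12, 13 with 14, 25 with 26) the medians were 0.051 and 0.093, and the calls 0 and 0. The numbers share no stated batch, and the correlation of their deviations was 0.21, 0.11 and 0.076 on the A array and 0.002 to 0.048 on the B array. Counting one probe set per gene, an alternative chosen after seeing the data, left 29 of 36 genes above 0 on the A array (median 0.054) and 7 of 9 on the B array. Single values were followed for the 22 probe sets named by rule (15 of the A design and 7 of the B design) of the 67 tested; of their 325 values under other settings 315 kept direction and side of the threshold and 10 turned sign: Psmb6 on the A array (-0.022 with quantile normalization, -0.016, -0.073, -0.009 and -0.001 without forelimb 13, forelimb 25, hindlimb 12 and hindlimb 14), Psmb4 (0.12 without hindlimb 14) and Psmc2 on the B array (-0.060, -0.10, -0.059 and -0.086 without forelimb 11, forelimb 25, hindlimb 12 and hindlimb 26). With each sample left out, Psmb6 ran from -0.073 to 0.14, Psmb4 from -0.38 to 0.12 and Psmc2 from -0.10 to 0.24. The cause was not tested. Members outside these 22 turned too: of all 56 on the A array 34 to 45 were above 0 with a sample left out. Signals below or near the filter limit what can be said of Psmb8, Psmb9, Psma8 and Psmb11, the last above 100 on 1 array and at 100 on another.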
